A study of Mus musculus with 4 samples.

Results

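Peaks of anti-FLAG chromatin immunoprecipitation (ChIP) were examined in 5 clusters of olfactory receptor genes other than the main cluster on chromosome 2. A peak was counted in a cluster when its midpoint lay between 109.5 and 115.6 Mb on chromosome 7, 18.5 and 20.3 Mb or 37.4 and 40.1 Mb on chromosome 9, or 36.0 and 37.4 Mb or 111.0 and 112.2 Mb on chromosome 2, all on mm9. These stretches are called below the chromosome 7 cluster, the proximal and distal chromosome 9 clusters and the proximal and distal chromosome 2 clusters. They span 13.2 Mb and held 486 of the 37778 peaks of the deposited list (1.29%). Each cluster was compared with flanks of its own length on both sides, and with the other clusters.

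The tissue was the dentate gyrus, a hippocampal region of densely packed granule neurons in which new neurons are born in the adult. It came from C57BL6 mice of about 9 weeks from a line that carries FLAG-tagged Mbd1, which all libraries share. There were 2 libraries of DNA precipitated with an anti-FLAG antibody and 2 input libraries made without antibody. No anti-FLAG library from untagged mice was among them, so binding of the tagged protein and unspecific recovery by the antibody cannot be told apart. The list combines the 4 libraries and has 1 value per peak, so no value below can be set against the spread between replicates, and intervals reflect counting or differences among peaks alone. Sequencing depth per library is unknown.

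MBD1 binds DNA at methylated CpG dinucleotides and is known for gene repression and for a role in hippocampal neurogenesis. Olfactory receptors are G protein-coupled receptors that detect odorants, and they form the largest gene family of the mouse. Each olfactory sensory neuron expresses 1 of them from 1 allele, and in most other cell types the family is largely silent. The genes stand in tandem clusters of similar copies that arose by duplication.

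The gene content of the clusters was described from the order of genes in RefSeq (GRCm38.p6), a later build than that of the peaks. Its runs of olfactory receptor genes were paired with the 5 stretches by chromosome and order alone. Which gene lies under which peak was therefore not analysed here. The set paired with the chromosome 7 cluster had 238 genes and pseudogenes with an Olfr symbol in 5 runs between Rrm1 and Nlrp10. Among them stood 6 genes or pseudogenes with an Hbb symbol, of the beta globin family that encodes the beta chains of haemoglobin. There were also 13 protein-coding genes of the Trim family of RING-type ubiquitin ligases and related proteins. The sets paired with the proximal and distal chromosome 9 clusters had 51 and 126 Olfr genes and pseudogenes. Those paired with the proximal and distal chromosome 2 clusters had 37 and 47. The chromosome 7 set also differed in its other content, with 55 other protein-coding genes against 0 to 3 in the 4 other sets.

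Promoter windows of these genes held few of the CpG dinucleotides that MBD1 is known to bind. RefSeq windows from 250 bases before to 50 after the annotated start were found for 336 of the 499 Olfr genes and pseudogenes, 338 windows in all. The motif counted was CG, which reads the same on both strands. The median window had 1 CpG (interquartile range 0 to 2), and 122 of 338 (36.1%) had none. Over all 32851 windows of the table the median was 7 (interquartile range 3 to 20), and 5.43% had none. At most 3 CpG were present in 318 of 338 windows (94.1%), against 31.4% of all windows, and 10 or more in none, against 43.5%. The 610 windows of Olfr genes elsewhere in the genome also had a median of 1, so the low number is shared by the family. In 251 of the 338 windows (74.3%) the annotated start was an ATG, against 5.83% of all windows. Many of these windows are thus placed around the start of the coding sequence rather than around a mapped transcription start. The sets differed little, with a median of 0.5 CpG in the one paired with the proximal chromosome 9 cluster and 1 in each of the other 4.

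To show how sparse these windows are in CpG, 1 window of each set is printed 5′ to 3′ on the strand of its gene. Each is the first by symbol among windows of its set's coding genes that hold their median number of CpG. That median was taken only over windows whose annotated start was not an ATG, where there were any, so it can differ from that of the set. In the set of Olfr1290, the annotated start was an ATG in 26 of 31 windows, and the median over all 31 was 1. Capitals mark every CpG. The sets are in the order chromosome 7, proximal and distal chromosome 9, proximal and distal chromosome 2.
Olfr543: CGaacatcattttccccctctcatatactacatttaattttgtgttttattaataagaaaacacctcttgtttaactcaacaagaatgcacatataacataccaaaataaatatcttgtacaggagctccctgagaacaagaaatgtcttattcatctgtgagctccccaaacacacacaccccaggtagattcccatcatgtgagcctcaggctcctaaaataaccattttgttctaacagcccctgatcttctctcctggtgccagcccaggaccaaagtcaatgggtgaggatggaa
Olfr39: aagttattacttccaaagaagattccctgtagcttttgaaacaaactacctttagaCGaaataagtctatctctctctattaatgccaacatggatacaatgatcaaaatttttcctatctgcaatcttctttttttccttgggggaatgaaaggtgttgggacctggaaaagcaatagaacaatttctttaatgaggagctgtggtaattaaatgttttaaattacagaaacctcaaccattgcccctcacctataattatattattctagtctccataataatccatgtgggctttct
Olfr25: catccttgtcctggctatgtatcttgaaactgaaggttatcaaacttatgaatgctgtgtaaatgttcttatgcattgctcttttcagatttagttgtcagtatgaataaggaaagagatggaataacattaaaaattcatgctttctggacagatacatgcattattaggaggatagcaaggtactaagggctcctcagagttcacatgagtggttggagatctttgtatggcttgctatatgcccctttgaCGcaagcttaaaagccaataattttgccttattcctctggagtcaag
Olfr338: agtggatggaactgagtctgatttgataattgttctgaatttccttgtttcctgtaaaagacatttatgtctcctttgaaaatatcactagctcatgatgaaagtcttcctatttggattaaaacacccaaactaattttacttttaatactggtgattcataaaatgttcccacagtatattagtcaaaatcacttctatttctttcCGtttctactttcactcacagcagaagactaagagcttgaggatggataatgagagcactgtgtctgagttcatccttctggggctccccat
Olfr1290: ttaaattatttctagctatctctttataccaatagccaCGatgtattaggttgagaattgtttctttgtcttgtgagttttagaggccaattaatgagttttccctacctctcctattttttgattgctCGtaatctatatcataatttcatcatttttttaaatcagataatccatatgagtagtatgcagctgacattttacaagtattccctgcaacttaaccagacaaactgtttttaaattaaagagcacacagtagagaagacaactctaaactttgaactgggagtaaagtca
Olfr543 and Olfr1290 lie on the minus strand and the other 3 on the plus strand. A single CpG stood in the 300 bases of each of the first 4, and 2 in Olfr1290. GC content was 40.7% in Olfr543, 34% in Olfr39, 38% in Olfr25, 36% in Olfr338 and 32% in Olfr1290. The median over the 338 windows was 35%, against 52.7% over all windows. Whether these promoters lay inside peaks was not analysed here, and the sequences of the peaks were not used.

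**Figure D1:**
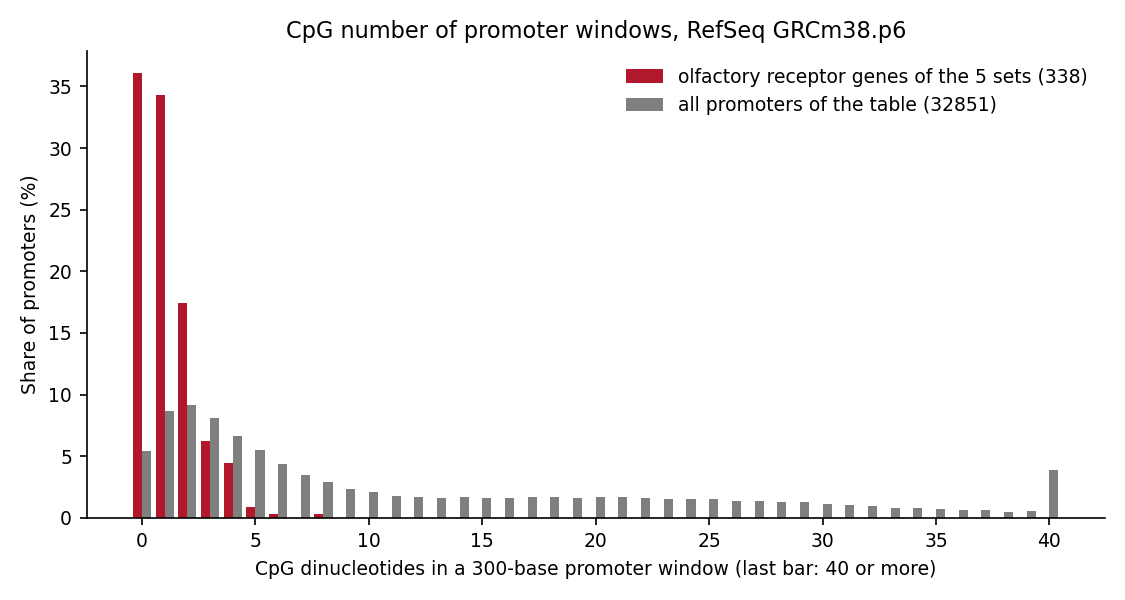
Share of 300-base promoter windows (y axis, %) by their number of CpG dinucleotides (x axis), for 338 windows of olfactory receptor genes of the 5 sets (red) and all 32851 windows of the table (grey). The red bars stand at 0 to 8 CpG, with 94.1% of windows at 3 or fewer, while grey bars spread to 40 and more.

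All 5 clusters held more peaks per Mb than their flanks. The chromosome 7 cluster had 168 peaks, 27.5 per Mb (exact Poisson 95% interval 23.5 to 32.0). The proximal and distal chromosome 9 clusters had 88 and 137 peaks, or 48.9 (39.2 to 60.2) and 50.7 per Mb (42.6 to 60.0). The proximal and distal chromosome 2 clusters had 42 and 51 peaks, or 30 (21.6 to 40.6) and 42.5 per Mb (31.6 to 55.9). For scale, autosomes outside the clusters had 15.5 peaks per Mb of the span between first and last peaks. Over 2382 autosomal windows of 1 Mb the median was 10 peaks and the 90th percentile 41. By their densities the proximal and distal chromosome 9 clusters and the distal chromosome 2 cluster lay above that percentile, and the other 2 below it. The intervals of the proximal chromosome 9 and distal chromosome 2 clusters include 41, so their place was not resolved. Cluster densities are also averages over stretches longer than the windows of 1 Mb.

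The ratio of the density in a cluster to that in both flanks together was computed with an exact conditional binomial 95% interval. It was 6.72 (4.87 to 9.41) for the chromosome 7 cluster, where the flanks held 50 peaks. The proximal chromosome 9 cluster had the lowest ratio, 2.20 (1.61 to 3.02), with 80 peaks in its flanks. The distal chromosome 9 cluster had a ratio of 4.57 (3.35 to 6.29) over 60 flank peaks. On chromosome 2 the ratio was 7.0 (3.62 to 14.6) for the proximal cluster, over only 12 flank peaks, and 3.09 (1.96 to 4.94) for the distal one, over 33. All 5 intervals lie above 1. Peaks stand in groups and are not independent, so the true uncertainty is wider than these intervals. Over the 5 clusters together the density was 36.8 per Mb against 8.90 in the 10 flanks, a ratio of 4.14 (3.53 to 4.85). A count restricted to peaks with a ChIP value at or above the median of the list lowered 2 ratios to where their intervals include 1, 1.45 (0.867 to 2.40) in the proximal chromosome 9 and 1.60 (0.775 to 3.25) in the distal chromosome 2 cluster. It also lowered the ratio to 4.6 (2.96 to 7.32) in the chromosome 7 cluster. In the distal chromosome 9 and proximal chromosome 2 clusters the ratio fell to 2.34 (1.46 to 3.79) and 2.91 (1.27 to 6.93). Set against the autosomes outside instead of the flanks, the ratios were 1.77 (1.52 to 2.06) for the chromosome 7, 3.15 (2.52 to 3.88) and 3.27 (2.74 to 3.86) for the proximal and distal chromosome 9, and 1.93 (1.39 to 2.61) and 2.74 (2.04 to 3.60) for the proximal and distal chromosome 2 clusters.

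The contrast was unequal on the 2 sides. After each cluster, on the side of higher coordinates, density fell to between 1.67 and 6.67 peaks per Mb. The ratio to this flank ran from 4.80 (3.32 to 7.12) at the chromosome 7 cluster to 29.3 (9.71 to 145) at the proximal chromosome 9 cluster, whose flank of 1.8 Mb held 3 peaks. Before the clusters the flanks varied more. The flank before the proximal chromosome 9 cluster held 77 peaks, 42.8 per Mb (33.8 to 53.5), and the ratio to it was 1.14 (0.832 to 1.57). A higher density than in that flank was therefore not shown. Ratios to the flank before were 2.54 (1.84 to 3.54) for the distal chromosome 9 cluster and 2.04 (1.24 to 3.44) for the distal chromosome 2 cluster. They were 6.0 (2.67 to 15.8) for the proximal chromosome 2 cluster and 11.2 (6.60 to 20.5) for the chromosome 7 cluster.

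**Figure D2:**
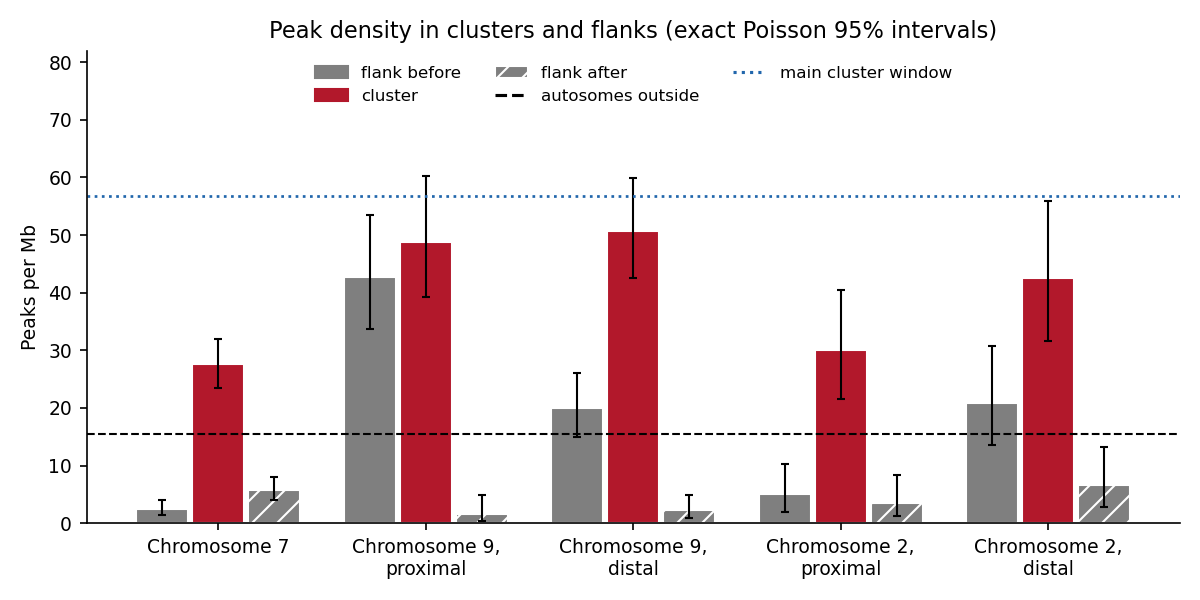
Peaks per Mb (y axis) in each cluster (red), in the flank before it (grey) and in the flank after it (hatched grey), with exact Poisson 95% intervals as error bars. The dashed line marks the 15.5 per Mb of the autosomes outside the clusters and the dotted line the 56.8 per Mb between 85 and 90 Mb on chromosome 2, and red bars stand above both of their grey neighbours, least clearly in the proximal chromosome 9 cluster.

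The borders were of different sharpness. In the 0.5 Mb on either side of the upper border of the distal chromosome 9 cluster, 15 peaks lay inside and 1 outside, and at its lower border 17 lay inside and 2 outside. The proximal chromosome 9 cluster had 18 inside and 1 outside at its upper border, but 30 inside and 24 outside at its lower one. At the proximal chromosome 2 cluster 18 lay inside and 2 outside at the lower border, and 10 and 3 at the upper one. At the distal chromosome 2 cluster the numbers were 24 and 12 at the lower border and 14 and 3 at the upper. Of the 12 outside its lower border, 8 stood in the adjoining 0.1 Mb, where bins of that width inside held at most 7. With both borders of this cluster 0.1 Mb outwards, its density ratio to the flanks was 4.14 (2.61 to 6.69), against 3.09. At the chromosome 7 cluster the lower border separated 11 peaks inside from 1 outside. Its upper border marked no such drop. The last 0.5 Mb inside held 22 peaks and the next 0.5 Mb outside 19, of the 35 peaks in that flank of 6.1 Mb. The dense stretch thus ran on past the stated border. In the flank before the distal chromosome 9 cluster most peaks also stood together, with 31 of 54 in the 0.5 Mb from 35.8 to 36.3 Mb, apart from the cluster itself.

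**Figure D3:**
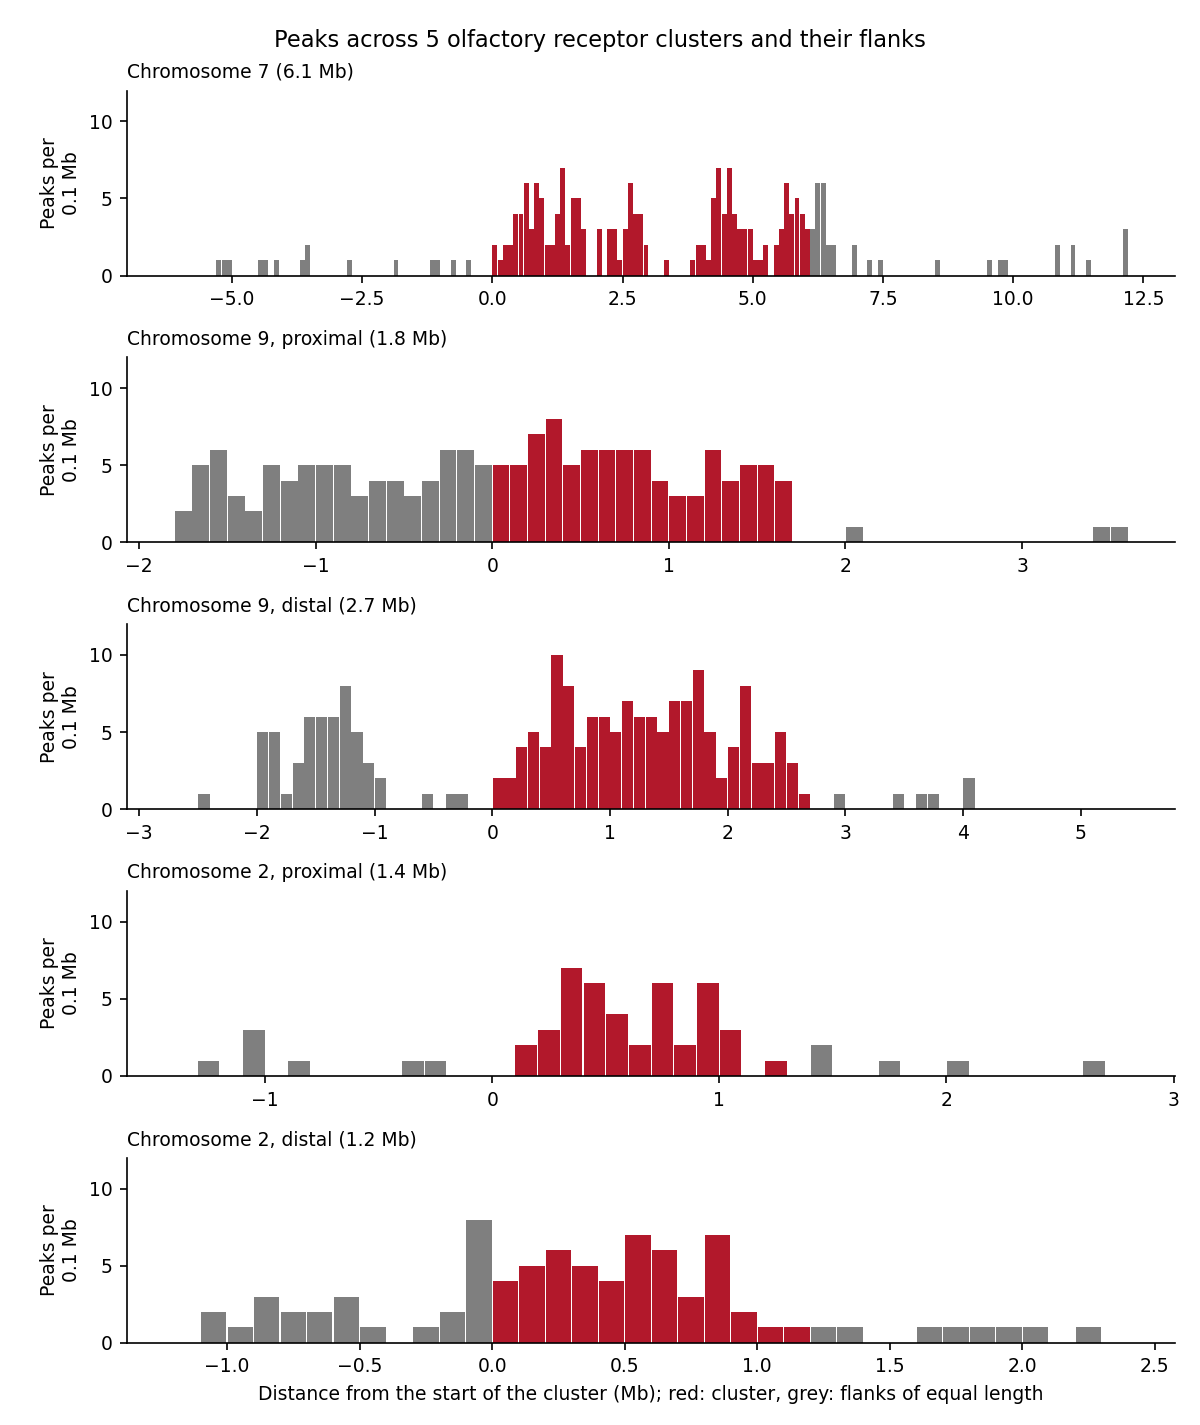
Number of peaks per 0.1 Mb (y axis) by distance from the start of each cluster (x axis, Mb), with the cluster in red and its flanks of equal length in grey. The chromosome 7 cluster is split by a long stretch with hardly a peak, the distal chromosome 9 cluster has peaks in each of its 27 bins, and the proximal chromosome 9 cluster continues into the flank before it.

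Within each cluster the median gap between neighbouring peaks was shorter than in its own flanks. It was 8723 bp (95% interval of the median 5600 to 12638) in the proximal and 7722 bp (5808 to 10162) in the distal chromosome 9 cluster. It was 12166 bp (5962 to 20468) in the proximal and 13143 bp (7413 to 17370) in the distal chromosome 2 cluster, and 13964 bp (11201 to 17271) in the chromosome 7 cluster. The intervals of the distal chromosome 9 and chromosome 7 clusters do not overlap. In the flanks the median gap was 65156 bp around the chromosome 7 cluster and 14233 and 13746 bp around the proximal and distal chromosome 9 clusters. Around the proximal and distal chromosome 2 clusters it was 200137 and 46826 bp. Gaps in the flanks of the chromosome 9 clusters were thus near those inside the chromosome 7 and distal chromosome 2 clusters. Of bins of 0.1 Mb, 0 of 27 were without a peak in the distal chromosome 9, 0 of 12 in the distal chromosome 2, 1 of 18 in the proximal chromosome 9 and 3 of 14 in the proximal chromosome 2 cluster. In the chromosome 7 cluster 11 of 61 were empty. Empty bins were frequent in the flanks, at 92 of 122 around the chromosome 7 cluster, 15 of 36 and 34 of 54 around the proximal and distal chromosome 9 clusters, and 19 of 28 and 6 of 24 around the proximal and distal chromosome 2 clusters.

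The longest gap of the chromosome 7 cluster was 576 kb, from 112802439 to 113378721. It was over 3 times the longest gap of any other cluster, which was 188 kb in the proximal chromosome 2, 145 kb in the distal chromosome 2, 76.8 kb in the distal chromosome 9 and 42 kb in the proximal chromosome 9 cluster. The 3.30 Mb before the gap held 95 peaks, 28.8 per Mb (23.3 to 35.2), and the 2.22 Mb after it 73 peaks, 32.9 per Mb (25.8 to 41.3). The intervals of the medians overlapped between the sides, with log2 ratios of 1.20 (1.11 to 1.32) and 1.22 (1.10 to 1.28) beside median widths of 4523 and 4671 bp. This split was made after the positions were seen. The RefSeq order of genes likewise shows breaks between its 5 runs on this chromosome, but the gap was not placed against them.

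Peaks covered 16.4% of the bases of the chromosome 7 cluster, 28.8% and 29.2% of the proximal and distal chromosome 9 clusters, and 18.3% and 20.7% of the proximal and distal chromosome 2 clusters. Flank coverage was 1.58%, 10.7%, 4.87%, 0.572% and 4.85% in the same order. By covered bases the ratio of cluster to flanks was 10.4, 2.70, 6.0, 32.1 and 4.27. It exceeded the ratio of peak numbers in each of the 5 clusters, most in the proximal chromosome 2 cluster.

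Member peaks were wide. Their median width was 4576 bp (4194 to 5000), against 3384 bp (2800 to 3988) in the flanks and 3075 bp (3043 to 3111) on the autosomes outside. The median was 4598 bp (4000 to 5275) in the chromosome 7, 4576 bp (3651 to 5377) in the proximal and 4448 bp (3575 to 5789) in the distal chromosome 9 cluster. It was 5196 bp (4230 to 7381) in the proximal and 4180 bp (3000 to 5201) in the distal chromosome 2 cluster, so the 5 clusters did not differ beyond these intervals. Only in the chromosome 7 and proximal chromosome 2 clusters did the interval lie above that of the flanks, whose medians were 2908 bp (2359 to 3866) and 1131 bp (808 to 1880). With flanks 0.5 times as long, the median width of the chromosome 7 cluster exceeded theirs by 1005 bp with an interval that includes 0 (-1371 to 2916), so that excess was not shown against the shorter flanks. Of all members 61 (12.6%, exact 95% interval 9.74 to 15.8%) were 10 kb or wider, against 5.53% (2.98 to 9.27%) of flank peaks and 4.20% of autosomal peaks outside. Members under 1 kb numbered 7 (1.44%, 0.581 to 2.95%), against 8.51% (5.28 to 12.8%) in the flanks.

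The height of enrichment varied among the clusters in the deposited ratios. The deposited log2 ratio compares ChIP with scaled input in each bin and averages this over the peak. Its median over all members was 1.28 (1.25 to 1.32), against 1.16 (1.10 to 1.22) in the flanks and 1.20 on the autosomes outside. The chromosome 7 cluster (1.22, 1.13 to 1.26) and the proximal chromosome 2 cluster (1.23, 1.14 to 1.31) stood near that level. The distal chromosome 9 cluster had 1.28 (1.19 to 1.35), the distal chromosome 2 cluster 1.42 (1.26 to 1.62) and the proximal chromosome 9 cluster 1.49 (1.36 to 1.60). The interval of the proximal chromosome 9 cluster lay above those of the chromosome 7, distal chromosome 9 and proximal chromosome 2 clusters and overlapped that of the distal chromosome 2 cluster. The order by ratio was not that by density, as the distal chromosome 9 cluster, with 50.7 peaks per Mb, came after the proximal chromosome 9 and distal chromosome 2 clusters by ratio.

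Against its flanks, the median log2 ratio of the proximal chromosome 9 cluster was higher by 0.31 (0.11 to 0.56, from the ends of both intervals). The other differences had intervals that include 0. They were -0.02 (-0.23 to 0.17) in the chromosome 7, 0.17 (-0.04 to 0.33) in the distal chromosome 9, 0.12 (-0.23 to 0.30) in the proximal chromosome 2 and 0.21 (-0.07 to 0.58) in the distal chromosome 2 cluster. Among peaks with an input at or above the median of the list, the difference of the proximal chromosome 9 cluster was 0.08 (-0.11 to 0.20), over 18 cluster and 40 flank peaks. With that input limit the cluster medians were 0.98 in the chromosome 7 and 1.01 and 1.04 in the proximal and distal chromosome 9 clusters. They were 1.14 and 1.07 in the proximal and distal chromosome 2 clusters, so the proximal chromosome 9 cluster no longer had the highest. In the same order these medians rest on 75, 18, 51, 21 and 11 peaks. The limit acts on the denominator of the ratio, and the order of the medians was not tested.

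Member peaks had slightly fewer reads than flank peaks in both ChIP and input. The median ChIP value was 57.0 reads per bin (56.6 to 57.6), against 59.7 (59.0 to 60.7) in the flanks and 58.8 on the autosomes outside. The median input before scaling was 10.9 reads per bin (10.6 to 11.2), against 12.3 (11.8 to 12.9) and 11.9. Among the clusters the input was lowest where the ratio was highest, at 9.83 (9.43 to 10.3) in the proximal chromosome 9 and 10.3 (9.20 to 10.9) in the distal chromosome 2 cluster. It was 11.0 (10.1 to 11.7) in the distal chromosome 9, 11.7 (11.1 to 12.0) in the chromosome 7 and 11.9 (11.0 to 12.4) in the proximal chromosome 2 cluster. Median ChIP values lay within 56.4 and 57.9 reads per bin in all 5. Across the 486 members Pearson's r of input with log2 ratio was -0.87. These values share the input, which is the denominator of the ratio, and all come from the same libraries. Within each cluster it lay between -0.90 and -0.84. Pearson's r of input with ChIP was 0.55, and of width with log2 ratio -0.24. How far the share of input reads that could be placed in these similar gene copies bears on the ratios was not tested.

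**Figure D4:**
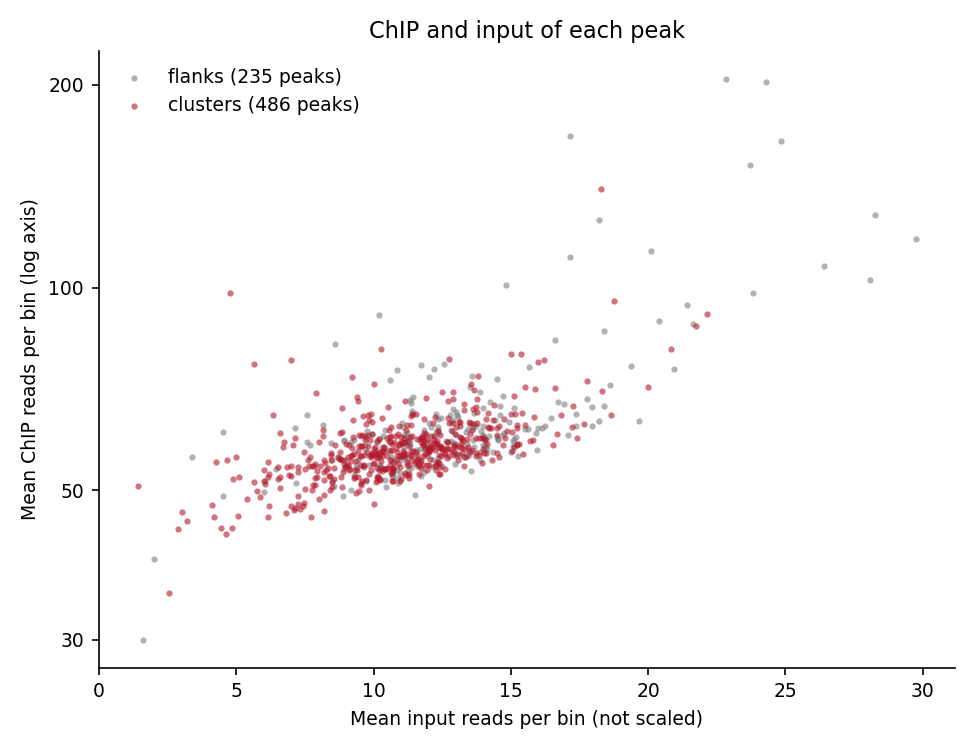
Mean ChIP reads per bin (y axis, log scale) against mean input reads per bin before scaling (x axis) for the 486 peaks of the clusters (red) and the 235 peaks of the flanks (grey). Most red points lie within the grey cloud and somewhat to its lower left, and the peaks with the highest values of both are mostly grey.

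The authors' quality flag, which coincided in all 37778 peaks with a smallest p of at most 0.0001 among a peak's bins, was carried by 212 of 486 members (43.6%, exact 95% interval 39.2 to 48.2%). The share in the whole list was 30.8%, and in the flanks it was 75 of 235 (31.9%, 26.0 to 38.3%). Flagged members were wider than the others, with medians of 6160 and 3658 bp. Width moved with the flag, and its part in the higher share was not tested. By cluster the flag was carried by 73 of 168 peaks in the chromosome 7 (43.5%, 35.8 to 51.3%), 44 of 88 in the proximal chromosome 9 (50%, 39.1 to 60.9%) and 55 of 137 in the distal chromosome 9 cluster (40.1%, 31.9 to 48.9%). It was carried by 16 of 42 in the proximal (38.1%, 23.6 to 54.4%) and 24 of 51 in the distal chromosome 2 cluster (47.1%, 32.9 to 61.5%). In the flanks it was carried by 17 of 50 peaks around the chromosome 7 (34%, 21.2 to 48.8%), 22 of 80 around the proximal (27.5%, 18.1 to 38.6%) and 24 of 60 around the distal chromosome 9 cluster (40%, 27.6 to 53.5%). Around the proximal chromosome 2 cluster it was carried by 6 of 12 (50%, 21.1 to 78.9%), an interval that spans the share of the cluster, and around the distal one by 6 of 33 (18.2%, 6.98 to 35.5%).

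A mean p over a peak's bins of at most 0.05 was reached by 30 members (6.17%, 4.20 to 8.70%), against 3.17% of the whole list and 4 of 235 flank peaks (1.70%, 0.466 to 4.30%). How the authors computed this p is not given. Of the 30, 11 lay in the chromosome 7 cluster (6.55% of its peaks, 3.31 to 11.4%). The proximal and distal chromosome 9 clusters held 9 (10.2%, 4.78 to 18.5%) and 5 (3.65%, 1.20 to 8.31%). In the proximal and distal chromosome 2 clusters there were 1 (2.38%, 0.0603 to 12.6%) and 4 (7.84%, 2.18 to 18.9%). Only in the chromosome 7 and proximal chromosome 9 clusters did the interval lie above the share of the whole list. A log2 ratio above 2 was reached by 36 members (7.41%, 5.24 to 10.1%), close to the 7.73% of the whole list. Of these 5 of 168 were in the chromosome 7 cluster (2.98%, 0.973 to 6.81%) and 8 of 51 in the distal chromosome 2 cluster (15.7%, 7.02 to 28.6%).

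Deposited log2 ratios of the members ran from 0.59 to 4.36, and none of the 486 lacked input reads. The peak with the largest ratio lay in the distal chromosome 2 cluster, from 111220901 to 111221799 (899 bp), with 50.8 ChIP and 1.40 input reads per bin. From summed counts, 254 of ChIP over 7 of input, its fold over scaled input was 15, with a 95% counting interval of 7.17 to 37.7. The next there, from 111249000 to 111250586, had 43.8 over 2.88 reads per bin and a fold of 6.29 (4.12 to 10.1). Both had ChIP values below the median of the cluster, so their ratios stand on a low input. They and a peak of the distal chromosome 9 cluster, from 38711455 to 38713008 (35.2 over 2.56 reads per bin), were the only 3 members with an input under 2.98 reads per bin, which is 0.25 times the median of the list.

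A narrow peak in the distal chromosome 9 cluster combined a high ChIP value with a low input. From 38222610 to 38223251 (642 bp) it held 98.3 ChIP reads per bin over 4.75 of input, with a log2 ratio of 3.27, a fold of 8.55 (5.40 to 14.4) and a mean p of 0.00257. That p was the lowest among the 30 members with a mean p of at most 0.05. A second peak of this cluster under that limit, from 39260000 to 39261799 (1800 bp), had 56.1 over 5.00 reads per bin, a fold of 4.64 (3.42 to 6.44). Its ChIP value was not high, beside a cluster median of 56.6. The other 3 of the cluster's 5 peaks under that limit were 6592 to 12779 bp wide, with folds of 2.44 to 2.62. The highest ChIP value of all members, 140 reads per bin from 37423800 to 37425186, was also in this cluster. It stood over 18.3 input reads per bin, so its fold was only 3.16 (2.63 to 3.84).

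In the proximal chromosome 9 cluster the 3 largest ratios were 2.47, 2.36 and 2.35. The last of these, from 19036815 to 19039809, had 55.0 over 4.25 reads per bin and the highest fold of the 3, 5.35 (4.18 to 6.95). This cluster had 3 peaks over 19 kb, of which the widest, from 19785816 to 19808761 (22946 bp), had 53.6 over 9.38 reads per bin and a fold of 2.36 (2.21 to 2.52). Its highest ChIP value was 81.2 reads per bin, from 18534622 to 18536798, close to the lower border.

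The chromosome 7 cluster held the widest member, from 115451867 to 115503799. It ran over 51933 bp with 58.7 ChIP and 12.3 input reads per bin, a log2 ratio of 1.10 and a fold of 1.98 (1.90 to 2.05). A shallow excess thus extended over a long stretch close to the upper border. The next widest, from 113949754 to 113969931 (20178 bp), was shallower still at 1.59 (1.51 to 1.69). The largest ratio of this cluster was 2.61, from 112360423 to 112360890 (468 bp), the narrowest member of all, with 78 over 7 reads per bin and a fold of 4.61 (2.66 to 8.62). The first 2 peaks after the long gap stood out by their counts. From 113378722 to 113396773 the input was 21.7 and ChIP 87.8 reads per bin, a fold of 1.67. From 113401438 to 113407619 ChIP was 95.4, the highest of the cluster, over 18.8 of input, a fold of 2.10 (1.93 to 2.30). Both had a mean p under 0.05.

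In the proximal chromosome 2 cluster the largest ratio, 2.79 from 36606315 to 36607184, came with 45 over 3.20 reads per bin and a fold of 5.81 (3.50 to 10.3). None of its 3 peaks with the largest ratios carried the quality flag, while all 3 of the distal chromosome 2 cluster did. The single peak with a mean p of at most 0.05, from 36782400 to 36785999, had an ordinary fold of 1.98 (1.71 to 2.30) and no flag. The widest, from 36735980 to 36754921 (18942 bp), had a fold of 1.91 (1.79 to 2.04). In the distal chromosome 2 cluster the widest, from 111395740 to 111412775 (17036 bp), had a fold of 1.94 (1.81 to 2.08). Its 4 peaks with a mean p of at most 0.05 had folds of 2.45 to 3.09 over 4925 to 8556 bp.

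The stretch from 85 to 90 Mb on chromosome 2, which holds the main olfactory receptor cluster, had 284 peaks, 56.8 per Mb (50.4 to 63.8). Its density was 2.06 times that of the chromosome 7 cluster (1.70 to 2.51) and 1.89 times that of the proximal chromosome 2 cluster (1.37 to 2.68). For the proximal chromosome 9 (1.16, 0.912 to 1.49), distal chromosome 9 (1.12, 0.910 to 1.38) and distal chromosome 2 clusters (1.34, 0.989 to 1.84) the intervals include 1. The interval of its median log2 ratio, 1.43 (1.38 to 1.5), overlapped those of the proximal chromosome 9 and distal chromosome 2 clusters and lay above those of the other 3. That of its median input, 9.91 reads per bin (9.56 to 10.3), overlapped those of both chromosome 9 clusters and of the distal chromosome 2 cluster.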

How the data were processed

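DNA of the dentate gyrus was sequenced from 2 anti-FLAG ChIP and 2 input libraries (single reads of 100 bp, fragments averaging 350 bp, per the labels' protocols). The animals behind each library are not named. Reads were aligned to mm9 with Bowtie 0.12.7, according to the submitters' processing notes. For the peak caller, multiply aligning reads and the pooling of libraries, nothing is given in the sources used here. The name of the deposited list gives a false discovery rate of 0.20.

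Mean ChIP and input values are signal in reads per bin, per the file headers, and scaled input is the authors' input times 2.42. The highest ChIP value in a bin and the pile-up at the summit are deposited whole-number counts. The log2 ratio and the −log10 values of the mean and smallest p of the bins were used as deposited. These values are the authors'. The list holds only peaks with ChIP above input (lowest log2 ratio 0.59) and tells nothing of regions outside peaks.

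Densities have exact Poisson, density ratios exact conditional binomial, shares exact Clopper-Pearson and medians binomial order-statistic 95% intervals. Peaks of 1 combined list are not replicates, so no p was computed. The edgeR fit planned in case of per-library counts could not be made. For folds, counts were summed over the number of bins nearest to width over 200 bp that made both sums whole (tolerance 1e-06), found for all 486 members and within 1 of that width in 86.2%. Counted reads are not independent molecules. Peaks were named by rule: in each cluster the 3 largest ratios, the 3 widest, the highest ChIP value, and all with a mean p of at most 0.05 where there were 5 or fewer. The first peak after the long gap on chromosome 7 was chosen after its values were seen. Clusters and lists were chosen with earlier results of these data known. Gene and promoter sets came from RefSeq GRCm38.p6, by gene order only, where a run allows up to 5 other genes between receptor genes; no position was moved between builds. Calculations were checked on simulated data. The software was Python 3.11.15 with scipy 1.17.1, numpy 2.4.6, pandas 2.3.3 and matplotlib 3.10.9.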

Additional observations from a re-analysis of the deposited data

How the results depend on the processing

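Density above the flanks kept its direction in all 54 alternatives computed and its interval above 1 in 51. The exceptions were the proximal chromosome 9 cluster against the flank before it (1.14) and with ChIP at or above the median of the list (1.45), and the distal chromosome 2 cluster with that ChIP limit (1.60). With a mean p of at most 0.05 the members numbered 30, and with the quality flag, added after seeing the data, 212. Both are fewer by construction. Among flagged peaks the density ratio rose to 4.0 (2.35 to 7.01) in the proximal chromosome 9 and 8.0 (3.19 to 23.9) in the distal chromosome 2 cluster. In the chromosome 7 cluster it was 8.59 (5.01 to 15.5), against 6.72 over all peaks. It was 4.58 (2.79 to 7.74) in the distal chromosome 9 cluster, near the 4.57 over all peaks. In the proximal chromosome 2 cluster it fell from 7.0 to 5.33 (1.98 to 16.6). At a mean p of at most 0.05 the density ratio was 11 (2.40 to 102) in the chromosome 7 and 9.0 (1.86 to 85.6) in the proximal chromosome 9 cluster. Each rests on 2 flank peaks, and both intervals at that p include the ratio over all peaks. No ratio was given for the proximal chromosome 2 cluster at that p, with 1 peak inside and 0 in the flanks. Flanks of the distal chromosome 9 and distal chromosome 2 clusters also held 0 such peaks. With a floor of 3 peaks over both flanks in place of 0, the ratios were 3.33 and 2.67. Their exact lower 95% limits, from 0 flank peaks, were 1.83 and 1.32. The excess in median log2 ratio of the proximal chromosome 9 cluster was 0.079 (-0.11 to 0.20) among peaks whose input reached the median of the list. That of the distal chromosome 9 cluster was 0.40 (-0.08 to 0.62) among peaks with the flag, and both intervals include 0. Median differences for those 3 clusters with no flank peak under the p limit were not given. With ChIP at or above the median, covered share over flanks was 1.32, 2.61, 14.1 and 1.78 in the proximal and distal chromosome 9 and proximal and distal chromosome 2 clusters. The cause of these shifts was not tested. In the other 20 alternatives for log2 ratio and 10 for width the difference stayed inside the interval of the reported one, and in 6 for covered share within 1.5 times, but some calls and signs did not hold. With flanks 0.5 times as long, the excess in width of the chromosome 7 cluster was 1005 bp (-1371 to 2916), that of the distal chromosome 9 cluster went from 228 to -602 bp, and the excess in log2 ratio was -0.04 in the proximal and 0.08 in the distal chromosome 2 cluster. Recomputed from mean counts, the excess in log2 ratio was -0.01 in the proximal chromosome 2 and 0.08 in the distal chromosome 9 cluster. With the input limit it was 0.03 in the distal chromosome 9 and 0.07 in the distal chromosome 2 cluster. No paired analysis was possible because the 4 libraries are combined in 1 value per peak, and for this reason no replicate could be left out. Input is shallow, at a median of 10.9 reads per bin, which limits single ratios most.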
